A study of Mus with 6 samples.

Results

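The nuclear genes for the respiratory chain and the ATP synthase were examined in leukaemic stem and progenitor cells of mice with chronic myeloid leukaemia. Members were the array probes whose gene symbol in the platform annotation begins with Ndufa, Ndufb, Ndufc, Ndufs, Ndufv, Uqcr, Cox4 to Cox8 or Atp5, or is Sdha to Sdhd or Cyc1, with assembly factors left out. That gave 123 of the 45281 probes, for 80 genes. Complex I had 53 probes of 34 genes, complex II 7 of 4, complex III 11 of 8, complex IV 22 of 17 and complex V 29 of 16. Ndufa4, named for complex I but known as a subunit of cytochrome c oxidase, was counted under complex IV. The last probe, of the pseudogene Ndufs5-ps, was kept apart.

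RNA was measured on 6 Illumina bead arrays, 3 of wild-type (WT) and 3 of Klf4-deficient cells, on the C57BL/6 background. All samples came from bone marrow of mice with leukaemia induced by the p210 form of BCR-ABL, taken 14 days after transplantation. LSK cells lack lineage markers and bear Sca-1 and c-Kit, and green fluorescence marked those with BCR-ABL. WT and Klf4-deficient cells thus both carried the oncogene and differed, by their labels, in Klf4, a zinc finger transcription factor. The sources used here do not give the Klf4 allele, the way it was removed or the age of the mice. Whether each array had its own mouse is not in the labels either, and the p-values then cover only a spread among arrays that may be technical.

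Oxidative phosphorylation runs in the inner mitochondrial membrane. Complex I takes electrons from NADH and complex II from succinate. Both pass them through ubiquinone to complex III, from there by cytochrome c to complex IV and so to oxygen. Proton pumping by complexes I, III and IV drives the ATP synthase, complex V. Most subunits are encoded in the nucleus and a few core subunits in mitochondrial DNA. Blood stem cells at rest are known to lean on glycolysis, and leukaemic stem cells of this disease to lean more on oxidative phosphorylation.

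The arrays were compared before any result was drawn from them. On every array 15.6% to 15.9% of all probes read above an intensity of 32, which served as the floor. WT replicate 3 stood apart. Its Pearson correlation with the other 5 arrays was 0.29 to 0.30 across the 18270 probes tested, against 0.66 to 0.72 among those 5, as a description across probes that share each array's RNA. The targeted gene gave no check of the labels: of the 3 Klf4 probes on 6 arrays, only 1 value, 51.9 on WT replicate 2, exceeded the floor, and where these probes lie in the gene was not analysed here. Of stem and progenitor genes, 2 to 3 of 10 probes were above the floor on WT and 2 to 4 on Klf4-deficient arrays (sums 239.8 to 1197.8 and 170.8 to 547). Kit, which encodes the c-Kit receptor, read 11.5, 17.4 and 381.5 in WT cells and 118.1, 7.3 and 63.1 in Klf4-deficient cells on its brightest probe. Another Kit probe read 12.1, 258.5 and -6.6 against 67.6, 16.2 and -10.8. The dimmest Kit probe exceeded the floor on WT replicate 3 alone (35.4). Slamf1 was at the floor throughout, and Ly6a, for Sca-1, had 0 named probes and was not analysed here. Summed over marker probes, granulocyte and monocyte genes read 4023.7 to 9656.3 in WT and 2578.2 to 4325.4 in Klf4-deficient cells, with 8 to 10 against 7 to 9 of 16 probes above the floor. Mpo probes made up most of these sums. On 1 Ms4a3 probe, 455.2, 270.1 and 236.7 against 87.5, 33.8 and 69, the groups did not overlap (adjusted p = 0.715 by limma). That happened downward for 0.958% of all probes tested. The other Ms4a3 probe overlapped, at 38.9, 154.8 and -9.4 against 153.9, 52.2 and 276.8. Erythroid genes read 860.4 to 2874.2 and 2287.5 to 3221 (2 against 3 of 4 probes, with Epor at the floor throughout), with Alas2, a haem synthesis enzyme, at 8.8, 26.1 and -15 against 172, 114.1 and 160.7 (adjusted p = 0.595 by limma). T and NK cell genes read 123.9 to 381.4 and 136.6 to 353.8 (2 to 3 of 13 probes in both groups), with Klrb1c and Ncr1 at the floor throughout. Of the B cell genes, only Ebf1 exceeded the floor on any array (sums 66.1 to 128 and 51.1 to 211.3, 0 to 1 against 0 to 2 of 7 probes). WT replicate 3 had the highest granulocyte and monocyte sum (9656.3), the lowest erythroid sum (860.4) and the highest T and NK sum (381.4). Single probes carried much of these sums. There 1 Mpo probe read 7153.2 and another 13.6, against 164 to 697.7 for the latter elsewhere. Hba-a1 read 74.5, with Slc4a1 at 779.5 inside the range of the rest. Cd3d read 225.4, with Cd8a and Cd8b1 at the floor. WT replicate 3 was highest for 6 and lowest for 2 of 14 tested granulocyte and monocyte probes. For T and NK probes that was 3 and 2 of 6, and for erythroid probes 0 and 2 of 3. WT replicates 1 and 2 read 5326.3 and 4023.7 for granulocyte and monocyte genes, which overlapped the Klf4-deficient range. For erythroid genes they read 1209.7 and 2874.2, also with overlap. The part of these cell types in the results was not tested.

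Respiratory chain and ATP synthase transcripts were well represented in LSK cells. Of the 123 member probes, 56, or 45.5%, were above the floor on at least 5 of the 6 arrays, against 6.68% of all probes. WT replicates 1 and 2 had 77 and 76 member probes above the floor, and the Klf4-deficient arrays 71, 74 and 70. WT replicate 3 had 35. That array thus held fewer detected subunits than any other, while the 2 remaining WT arrays held slightly more than the Klf4-deficient arrays. In complex II, 0 of 7 probes were above the floor on WT replicate 3, against 4 to 5 elsewhere. In complex V, 11 of 29 were, against 17 to 24.

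**Figure D1:**
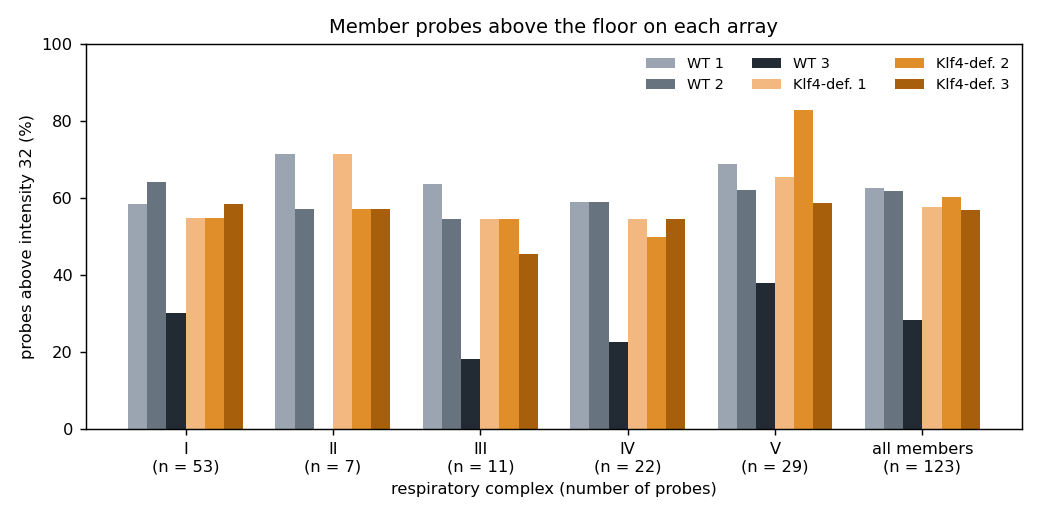
Share of member probes above an intensity of 32 on each array, in percent, for complexes I to V and for all 123 members. Each bar is 1 array, grey to black for WT and orange for Klf4-deficient. WT replicate 3, the black bar, stands at 28.5% for all members, against 56.9% to 62.6% on the other arrays.

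Loss of signal on WT replicate 3 was not confined to these genes. Of the 55 member probes above the floor on all of the other 5 arrays, 34, or 61.8%, were at the floor on WT replicate 3. For all probes of the array it was 1460 of 2657, or 54.9%. The remaining 21 member probes divided evenly on that array: 7 were below the range of the other 5, 7 inside it and 7 above it. WT replicate 3 was the lowest array for 58.8% of tested members, against 28.6% of all tested probes. It was the highest array for 14.7% of tested members, against 29.2% of all tested probes. Member probes were brighter, with 45.5% above the floor on at least 5 arrays, against 6.68% of all probes. The tested probes also include those above the floor on WT replicate 3 alone. These ranks thus come from unlike backgrounds, and no lower standing of the members can be read from them. In bulk RNA, fewer cells of a type and less RNA per cell cannot be told apart.

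**Figure D2:**
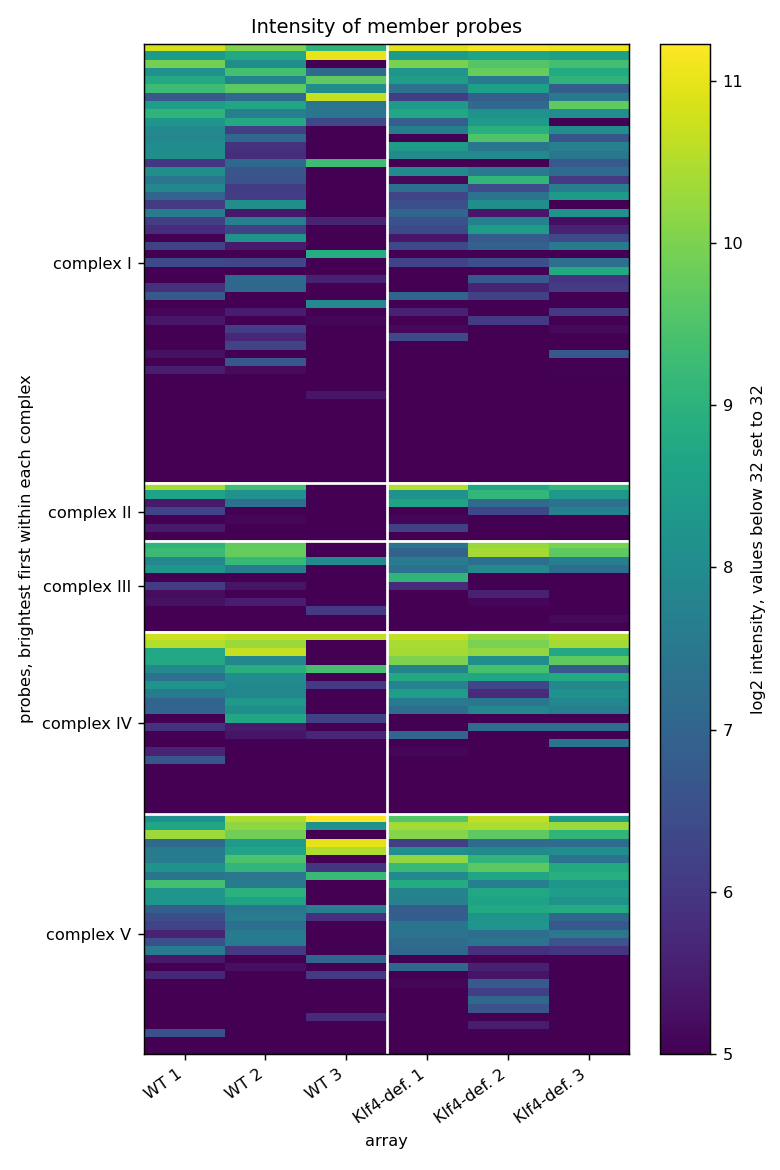
Intensity of the 122 member probes of complexes I to V on the 6 arrays, as log2 with values below 32 set to 32. Rows are probes, brightest first within each complex, and columns are arrays. The WT replicate 3 column is dark where the other 5 are bright, with a few rows brighter there than anywhere else.

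Some member probes went the other way on WT replicate 3, as did many probes of the array. There, 8 of the 102 tested member probes read more than 3 times as high as on every other array, against 1 to 6 on the other arrays. They were probes of Atp5g3, Atp5j, Atp5pb, Ndufa6, Ndufb2, Ndufc1, Ndufc2 and Ndufv2. Other Atp5j probes read 203.5 and 57.6 there, inside the range of the rest and below it. Over all 18270 tested probes the count was 2043 on WT replicate 3 and 429 to 507 elsewhere, so this was no trait of the members. Atp5g3, which encodes the proton-carrying ring subunit of ATP synthase, read 1435.6 on WT replicate 3 and 192.8 to 400.7 on the other 5 arrays. Ndufv2, an iron-sulfur subunit of the NADH-oxidising arm of complex I, read 2084.3 there and 334.3 to 435.6 on the rest.

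Klf4-deficient cells were compared with WT cells to see whether levels of these subunits differ with Klf4. No member passed the test. By limma with Benjamini-Hochberg adjustment over the 18270 probes that exceeded the floor on at least 1 array, 0 of 102 tested members were called, and so were 0.0% of all probes tested. The lowest adjusted p of a member was 0.715. An unadjusted p under 0.05 was reached by 1 member, Ndufv3, which was higher in Klf4-deficient arrays, where 1.46% of all probes tested reached it in that direction and 0.575% in the other. The other 21 member probes were at the floor on all arrays.

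Most differences pointed upward with all 6 arrays and pointed evenly both ways without WT replicate 3. Among the 102 tested probes, 69 were higher in Klf4-deficient cells and 33 lower. That is 67.6% higher, where 45.8% of all probes tested were higher and 54.2% lower. The median log2 difference was 0.40 for these and -0.05 for all tested probes. Over all 123 members it was 0.17, and over all probes of the array 0. Without WT replicate 3, 51 of 97 tested members were higher and 46 lower, 52.6% higher against 54.9% of all probes (45.1% of which were lower), and the median was 0.04 against 0.06. In that fit an unadjusted p under 0.05 was reached upward by Cox5a and Atp5a1 (1.20% of all probes) and downward by Ndufs6 (2.35% of all probes), and 0 members or other probes were called. The median over all 123 members was 0 without WT replicate 3 and also 0 without Klf4-deficient replicate 2.

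**Figure D3:**
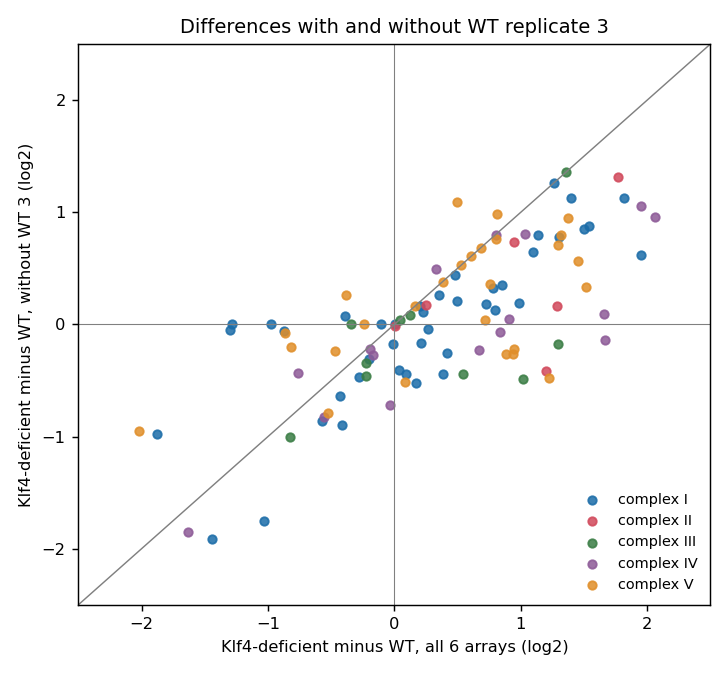
Log2 difference of each of the 101 tested member probes of complexes I to V, Klf4-deficient minus WT, with all 6 arrays (horizontal axis) and without WT replicate 3 (vertical axis). Each point is 1 probe, coloured by complex, and the diagonal marks equal values. Of the 69 points right of 0, 56 lie under the diagonal.

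The 3 arrays of the groups did not overlap for 5 member probes. Ndufb8, Ndufv3, Cox5a and Atp5b were higher in all Klf4-deficient arrays and Uqcr11 was lower. The 4 higher probes make 3.92% of the tested members, where 2.13% of all tested probes had no overlap upward, and the 1 lower probe 0.980%, against 0.958%. Without WT replicate 3, 5 members had no overlap upward (5.15%, against 3.36% of all probes) and 4 downward (4.12%, against 5.10%). Those were the same 5 probes with Atp5a1 added upward and Ndufs6, Ndufa11 and Uqcrh added downward. The upward share was above that of all probes in both cases and rested on 4 or 5 probes. Separation upward needs all 3 Klf4-deficient arrays above the floor, which dim probes cannot give. Member probes were brighter: 45.5% were above the floor on at least 5 arrays, against 6.68% of all probes. The shares thus come from unlike backgrounds, and no excess among members can be read from them.

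**Figure D4:**
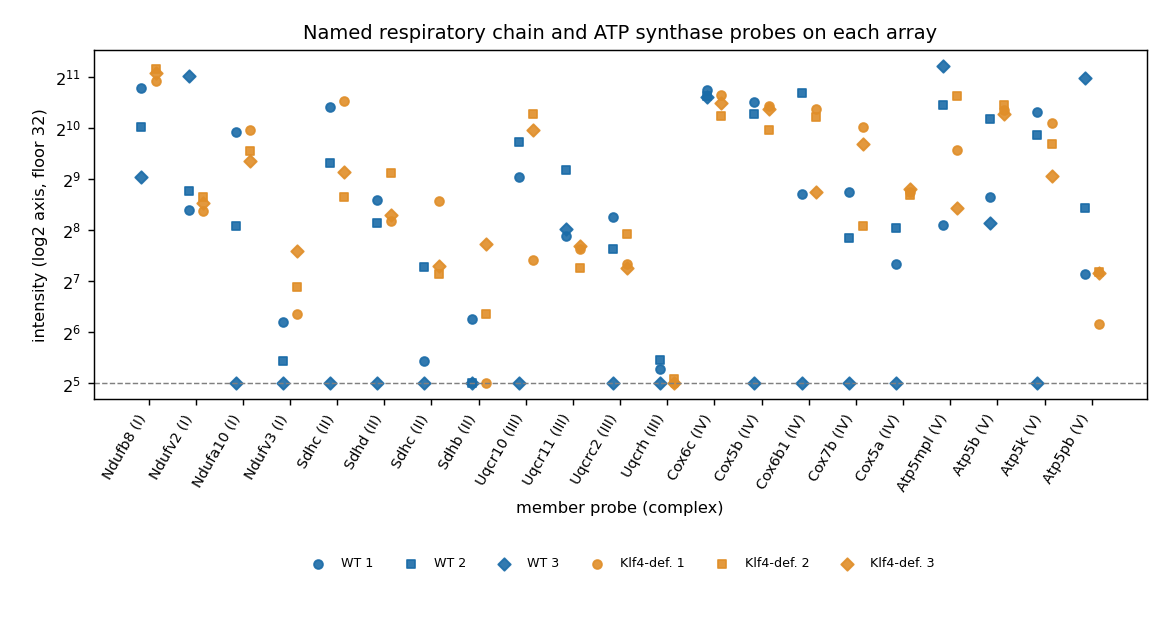
Intensity on a log2 axis of the member probes named for their brightness, their p or their lack of overlap, with values below 32 drawn at 32 (dashed line). Blue symbols are WT and orange Klf4-deficient arrays, and circles, squares and diamonds are replicates 1, 2 and 3. The blue diamond of WT replicate 3 lies at the floor for 14 of the 21 probes, and Cox6c is at a like height on all arrays.

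In complex I, the NADH dehydrogenase, 27 of 42 tested probes were higher in Klf4-deficient cells and 15 lower, at a median difference of 0.22 (log2), and 21 were higher and 18 lower (median 0.08) without WT replicate 3. Ndufb8, an accessory subunit of the membrane arm, read 1779.7, 1040.5 and 525.8 on WT replicates 1 to 3 and 1945.3, 2279.4 and 2162.3 on the Klf4-deficient arrays. All Klf4-deficient arrays lay above all WT arrays, by 1.10 ± 0.47 (log2 with its SE, n = 3 arrays a group, limma adjusted p = 0.715), and by 0.64 without WT replicate 3. Another Ndufb8 probe was at the floor on all arrays. Ndufv3, an accessory subunit beside the NADH-binding flavoprotein, read 74, 43.6 and 9.7 in WT cells and 82.6, 119.3 and 192.2 in Klf4-deficient cells. Its groups did not overlap either, at 1.40 ± 0.46 (adjusted p = 0.715) and 1.12 without WT replicate 3. A second Ndufv3 probe read 130.6, 69.8 and -11.2 against 78.8, 166.8 and 335, with overlap.

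Ndufa10, an accessory subunit, read 970.3, 273.3 and -1 in WT cells and 1002.7, 750.4 and 655.3 in Klf4-deficient cells. WT replicate 1 lay within the Klf4-deficient range and WT replicate 3 at the floor, so the difference of 1.95 ± 1.28 (adjusted p = 0.715) became 0.62 without that array. Ndufv2 read 337.7, 435.6 and 2084.3 against 334.3, 400.7 and 372.1, a difference of -0.87 ± 0.74 (adjusted p = 0.715) that became -0.06. Ndufs6, an accessory subunit of the NADH-oxidising arm, was lower in Klf4-deficient arrays than on both other WT arrays once WT replicate 3 was left out. It read 620.3, 809.8 and 266.9 in WT cells and 161.4, 363.7 and 113.8 in Klf4-deficient cells, or -1.44 ± 0.62 with all arrays and -1.91 without WT replicate 3 (adjusted p = 0.715 and 0.836). Another Ndufs6 probe was at the floor on all arrays. Ndufs6 was singled out after its values were seen. Ndufa11, the other complex I probe so separated, read 45.3, 35.5 and -4.5 in WT cells and 21.5, 23.9 and 33 in Klf4-deficient cells, close to the floor throughout. Ndufb11, with both of its probes, was the 1 complex I gene at the floor on all arrays.

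Complex II, succinate dehydrogenase, also belongs to the citric acid cycle. All 6 of its tested probes were higher in Klf4-deficient arrays, with a median of 1.07 (log2), while all 7 were at the floor on WT replicate 3. Without that array 4 were higher and 2 lower, with a median of 0.17. Sdhd, a membrane anchor subunit, read 388.1, 284.7 and -9.8 in WT cells and 291.8, 557.4 and 316.8 in Klf4-deficient cells. Apart from WT replicate 3 the groups overlapped, and the difference of 1.29 ± 1.03 (limma adjusted p = 0.715) became 0.16.

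The partner anchor of Sdhd, Sdhc, had a pair of tested probes. The brighter read 1360, 639.3 and -11.6 against 1488.5, 405 and 563, and its difference turned from 1.20 ± 1.53 (limma adjusted p = 0.725) to -0.42 without WT replicate 3. The other read 43.6, 155.8 and -2.8 against 382.2, 141.9 and 158.8, at 1.77 ± 0.74 and 1.31 without that array (adjusted p = 0.715 with all arrays). The Sdhc probes thus pointed opposite ways once WT replicate 3 was left out. Sdhb, the iron-sulfur subunit, read 76.4, 23.2 and 16.8 in WT cells and 19.3, 81.9 and 213.3 in Klf4-deficient cells on its brightest probe (0.95 ± 0.80, adjusted p = 0.715, and 0.26 without Klf4-deficient replicate 3). Sdha, the flavoprotein that oxidises succinate, exceeded the floor on WT replicate 1 (43.5) and Klf4-deficient replicate 1 (73) and on no other array, and its difference of 0.25 ± 0.40 became -0.15 without Klf4-deficient replicate 1.

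In complex III, which hands electrons from ubiquinol to cytochrome c, 6 of 10 tested probes were higher in Klf4-deficient cells and 4 lower (median 0.08), and 3 were higher and 6 lower (median -0.35) without WT replicate 3. Uqcr11, a small accessory subunit, was the 1 member lower in all Klf4-deficient arrays. It read 237.8, 579.4 and 259.7 in WT cells and 199.5, 154.5 and 206.9 in Klf4-deficient cells. The difference was -0.83 ± 0.40 (log2 with its SE, n = 3 arrays a group, limma adjusted p = 0.715) and -1.001 without WT replicate 3, and WT replicate 2 was the highest array. Uqcr10, another small subunit, read 532, 853 and 10 against 171, 1240.6 and 1004.6 on its brightest probe, with Klf4-deficient replicate 1 below both higher WT arrays.

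The Uqcr10 difference of 1.29 ± 1.52 (limma adjusted p = 0.715) turned to -0.17 without WT replicate 3. So did that of Uqcrc2, a core subunit, from 0.54 ± 0.91 (adjusted p = 0.777) to -0.44, with 308.2, 199.5 and 7.9 in WT cells and 162.8, 243.2 and 152.9 in Klf4-deficient cells. Uqcrh, the hinge protein that helps cytochrome c dock, read 38.9, 44.2 and -1.9 against 10.2, 33.9 and 11.7 (-0.22 ± 0.19). Cyc1, the haem-bearing cytochrome of the complex, read 36.9, 23.4 and 2.2 against 28.8, 47.4 and 22.1, with 1 array above the floor in each group (0.12 ± 0.23, and -0.069 without Klf4-deficient replicate 2). Of the Rieske iron-sulfur protein gene Uqcrfs1, 1 probe exceeded the floor on 1 array and the other on 0.

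In complex IV, cytochrome c oxidase, 10 of 16 tested probes were higher in Klf4-deficient cells and 6 lower (median 0.74), and 7 were higher and 9 lower (median -0.10) without WT replicate 3. Cox5a, a subunit on the matrix side, read 161.4, 266 and -2.6 in WT cells and 429.3, 413.6 and 446.8 in Klf4-deficient cells. The Klf4-deficient arrays lay close together and above every WT array. The difference was 1.95 ± 0.82 (log2 with its SE, n = 3 arrays a group, limma adjusted p = 0.715), and 1.05 without WT replicate 3 (adjusted p = 0.836). Cox7b read 430.6, 232.1 and -8.9 against 1036.3, 273.3 and 823, at 2.06 ± 1.13 and 0.96 without that array (adjusted p = 0.715 with all arrays). Klf4-deficient replicate 2 lay between the higher WT arrays.

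For Cox5b and Cox6b1 WT replicate 3 was the one array at the floor. Cox5b read 1469.3, 1242 and 19.9 against 1394.6, 998.2 and 1331.9 on its brightest probe, and its 1.66 ± 1.59 (limma adjusted p = 0.715) became -0.14. Cox6b1, which helps join the pair of complex IV units in its dimer, read 417, 1647.9 and 27.7 against 1338, 1194.6 and 434.2, and its 1.66 ± 1.53 (adjusted p = 0.715) became 0.10. Cox6c varied little on any array: 1712.5, 1578.3 and 1573.5 in WT cells and 1621.2, 1212.3 and 1441.3 in Klf4-deficient cells, a difference of -0.20 ± 0.19 (adjusted p = 0.715). Of the 55 members above the floor on the other 5 arrays, Ndufv2 (1.30 times) and then Cox6c (1.41 times) had the least range from lowest to highest across those 5, where the median was 3.67 times.

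Complex IV also has isoforms known from particular tissues. Cox6a2, Cox7a1 and Cox8b, forms of heart and skeletal muscle, were at or below 15.8 on every array, as was the testis form Cox7b2. Cox6a1, the broadly expressed partner of Cox6a2, read 298.3, 238.6 and 65 in WT cells and 216.9, 80.1 and 245.7 in Klf4-deficient cells, with overlap (-0.04 ± 0.76, limma adjusted p = 0.981, between -0.72 and 0.47 with 1 array left out). Cox4i1, the usual form of the largest nuclear subunit, read 242.3, 486.8 and 674.6 against 219.8, 679.8 and 109.2 (-0.76 ± 0.79, adjusted p = 0.715, between -1.47 and -0.15 with 1 array left out). Cox4i2, a form of lung and of low oxygen, exceeded the floor on WT replicates 2 (416.1) and 3 (73) and on 0 Klf4-deficient arrays. Its difference with values at the floor set to 32 was -1.63 ± 0.97 (adjusted p = 0.715), and -0.59 without WT replicate 2.

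Other forms were seen on single arrays. The testis forms Cox6b2 and Cox8c exceeded the floor on 1 array each, WT replicate 1 (101.1) and Klf4-deficient replicate 3 (169). The Cox6b2 difference was -0.55 ± 0.51 (limma adjusted p = 0.715). Cox7a2 read 16.3, 40.9 and 51.2 against 129.9, 28.3 and 11.3 and turned from 0.33 ± 0.63 (adjusted p = 0.804) to -0.34 without Klf4-deficient replicate 1. Cox7a2l read 59.3, 44 and -5.3 against 20.9, 150.7 and 148.9 (1.03 ± 0.70, adjusted p = 0.715). Ndufa4 read 130.9, 272.3 and 3.4 against 152.6, 237.1 and 206.5, and its 0.90 ± 0.82 (adjusted p = 0.715) became 0.05 without WT replicate 3.

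In complex V, the ATP synthase, 20 of 27 tested probes were higher in Klf4-deficient cells and 7 lower (median 0.68), and 16 were higher and 10 lower (median 0.30) without WT replicate 3. The catalytic head is built of the alpha and beta subunits. Atp5b, the beta subunit, read 401.3, 1163.6 and 281.9 in WT cells and 1318.4, 1402.6 and 1242 in Klf4-deficient cells. All Klf4-deficient arrays lay above all WT arrays, with WT replicate 2 close to them. The difference was 1.37 ± 0.56 (log2 with its SE, n = 3 arrays a group, limma adjusted p = 0.715), and 0.95 without WT replicate 3. Atp5a1, the alpha subunit, read 171.3, 176.7 and 592.6 against 253.7, 411.6 and 484.2 on its brighter probe. Here WT replicate 3 was the highest array, so the difference of 0.50 ± 0.59 (adjusted p = 0.715) was 1.09 without it (adjusted p = 0.836). The dimmer Atp5a1 probe went the other way, above the floor on WT replicate 1 alone. It read 95.4, 28.9 and -4.1 against -21.5, -9.5 and -5.9 (-0.53, and -0.79 without WT replicate 3). Atp5a1 was named after its values were seen.

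Atp5k, a small membrane subunit, read 1277.6, 940.4 and 6.5 in WT cells and 1099.5, 822.2 and 539.6 in Klf4-deficient cells, and its 1.22 ± 1.52 (limma adjusted p = 0.721) turned to -0.48 without WT replicate 3. Atp5mpl, a small proteolipid, read 277.2, 1409 and 2394.6 against 760.8, 1578.3 and 348.6, and its -0.39 ± 1.00 (adjusted p = 0.855) turned to 0.26. Atp5pb, the peripheral stalk subunit, read 141.7, 346 and 2022.6 against 71.7, 144.9 and 144.1, at -2.02 ± 1.04 and -0.95 without that array (adjusted p = 0.715 with all arrays). WT replicate 3 was the highest array for both.

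Several probes of a gene did not always point the same way. Of the 31 member genes with several probes, 22 had at least 2 tested, and these pointed the same way in 13 and opposite ways in 9. Atp5pb had the widest gap, with another probe at 0.17 against -2.02 for the brightest. For Ndufc2, a membrane arm subunit of complex I, the probes differed on WT replicate 3. One read 103.9, 140.9 and 1644.8 in WT cells and 71.6, 119.1 and 188.1 in Klf4-deficient cells (-1.30 ± 1.17), the other 84.8, 78.3 and -6.4 against 75.6, 92.1 and 153.9 (0.78 ± 0.50). Both had a limma adjusted p of 0.715. On the same array the transcript was thus highest by 1 probe and at the floor by the other. Cox5b and Uqcrq had the next gaps, with -0.17 ± 0.24 on a dim Cox5b probe, and -0.35 ± 0.34 and 1.35 ± 1.19 for Uqcrq, each from 1 array above the floor.

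Genes around the chain were read from lists of the pathway, of which 0 members were called. Of 11 tested probes for mitochondrially encoded subunits and cytochrome c, 8 were higher in Klf4-deficient cells and 3 lower (median 0.55, and 0.15 without WT replicate 3). ND4, a proton-pumping core subunit of complex I, read 1325.8, 2071 and 494.5 in WT cells and 2102.1, 1913.3 and 1821.1 in Klf4-deficient cells, and its 0.81 ± 0.56 (limma adjusted p = 0.715) became 0.23. COX2, a catalytic core subunit of complex IV, read 1412.6, 2259.9 and 253.3 against 1587.4, 1889 and 1969.5, and 0.96 ± 0.86 became 0.02. ND1, another core subunit, read 756.5, 1751.3 and 1036.3 against 1285.4, 1094.3 and 994.9 (0.01 ± 0.36, between -0.27 and 0.34 with 1 array left out). ND5, picked out after its values were seen, read 1.4 on WT replicate 3 and 529.3 to 889.8 on the others, and its 1.11 ± 1.41 turned to -0.48 without that array. Transcripts of the same small genome thus stood at different heights on WT replicate 3.

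Cycs, which encodes cytochrome c, was separated on 1 of its 3 probes, with 47.4, 52.8 and 48.9 in WT cells and 208.2, 73.1 and 233.8 in Klf4-deficient cells (1.62 ± 0.49, limma adjusted p = 0.715). The other Cycs probes overlapped, at -0.13 ± 0.73 and -0.06 ± 0.27, and turned to 0.41 and 0.15 without WT replicate 3. Of all probes tested, 2.13% had no overlap upward and 0.958% downward. Of 43 tested assembly factor probes, 23 were higher and 20 lower (median 0.06). Among them, 1 probe each of Cox18 and Coa5 had no overlap upward, and that of Tmem126b none downward. Atpaf2, a chaperone of the synthase head, read 1338, 2125.6 and 501.4 against 1826.4, 2877.4 and 1751.3, and its 0.90 ± 0.59 became 0.31. Of the citric acid cycle, 12 of 24 tested probes were higher and 12 lower (median -0.01), and 1 Dlst probe had no overlap downward. Idh2, the mitochondrial isocitrate dehydrogenase that uses NADP, read 392.3, 534.2 and 1217.3 against 295.1, 451.8 and 432.3 (-0.72 ± 0.48, and -0.25 without WT replicate 3).

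Of 15 tested probes for regulators of mitochondrial gene expression, 7 were higher and 8 lower (median -0.05). Nrf1, a transcription factor for many respiratory chain genes, did not overlap between groups on 1 probe. That happened downward for 0.958% of all probes tested. The other Nrf1 probe was at the floor on all arrays. The probe without overlap read 87.4, 125.8 and 170.3 in WT cells and 63.8, 67.1 and 39.2 in Klf4-deficient cells. Its difference was -1.16 ± 0.36, and -0.93 without WT replicate 3 (limma adjusted p = 0.715 and 0.836). Of 10 tested probes for carriers and related proteins, 5 were higher and 5 lower (median -0.21). Atpif1, the inhibitor of the ATP synthase, read 1048.3, 1913.3 and 4552.9 against 1307.8, 1621.2 and 1685.3, and its -0.45 ± 0.57 (adjusted p = 0.723) turned to 0.11. Vdac1, the outer membrane channel, turned from -0.89 ± 0.88 to 0.048 without WT replicate 3. Slc25a3, the phosphate carrier that supplies the synthase, was lower in all Klf4-deficient arrays on 1 of 2 probes, with 88.4, 112.7 and 304.1 against 27.1, 45.4 and 22.8 (-2.01 ± 0.52, and -1.47 without WT replicate 3).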

How the data were processed

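Intensities were deposited on a linear scale. At 95.5% of ranks the arrays held the same value within 5% or 0.15, as quantile normalization gives. The submitters' processing notes name BeadStudio, per the labels, and the sources used here give neither its version nor its normalization. Values ran from -31 to 37007.2, with 45.3% to 45.6% at or below 0, and such scaling hides any difference in total RNA. Values below 32 were set to 32 before log2 was taken, so fold changes of dim probes are understated; no further normalization was applied. Each probe was its own feature, and probes above 32 on at least 1 array were tested with limma 3.58.1 (lmFit, eBayes, R 4.3.3), adjusted with Benjamini-Hochberg over all tested probes at a threshold of 0.05. An SE is limma's moderated one. The fit was tested on simulated data. These had less spread than member probes typically showed and larger changes than any member, so they cannot show what the fit could detect here. The number of arrays limits the precision.

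Probe symbols came from the platform annotation; all 123 matched a RefSeq gene. Neither sequences nor genome coordinates were used. Named were, in each complex, the 3 brightest genes and the 2 with the smallest p, probes without overlap, isoform pairs, Sdha to Sdhd and Cyc1, and opposite probe pairs. From each pathway list the brightest were named, with a few without overlap added after their values were seen. Atp5g3, Uqcrfs1, Cox8c, Ndufb11, Alas2 and the second Ndufv3 probe were added after their values were seen, and others outside the rule are marked where named. So were the single probes given for Mpo, Ms4a3, Hba-a1, Slc4a1 and Cd3d, and the dimmer Kit probes. Members and lists were chosen with earlier results of these data known. Alternatives covered the floor, filter, probe choice, normalization, moderation, replicate block and leaving out each array.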

Additional observations from a re-analysis of the deposited data

How the results depend on the processing

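The count of called members was 0 under all 16 alternatives. The count of all called features was 0 except for 1 without the filter on dim probes and 1 when probes of a gene were averaged, neither a member. At an unadjusted p under 0.05, limma gave 371 features in the reported fit. The median difference over all 123 members, 0.17 (log2), was 0.0184 when 64 was the floor, 0.32 when 16 was added and no floor set, and 0 to 0.21 with 1 array left out. With the replicate block, 0 features were called. Deviations of same-numbered arrays correlated at 0.03 to 0.04, for each WT array the highest of its correlations. Those of arrays with unlike numbers correlated at -0.029 to -0.0076. Whether the numbers pair the arrays cannot be told from values this small.

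With 16 added, the dim Cox5b probe turned to 0.0247 and Ndufa11 to 0.18. When probes of a gene were averaged, Atp5mpl turned to 0.0716, Cox6a1 to 0.32, Ndufc2 to -0.26, Atp5a1 to -0.0135, Atp5pb to -0.58 against its dim probe, Cox5b to 0.50, Uqcrq to 0.50 and Cycs to 0.48 against their lower probes. With 1 array left out, differences that changed sign ranged from -0.42 to 2.29 for Sdhc (brighter probe), -0.17 to 2.19 for Uqcr10, -0.44 to 1.19 for Uqcrc2, -0.14 to 2.62 for Cox5b, -0.28 to 0.036 for its dim probe, -1.30 to 0.26 for Atp5mpl and -0.48 to 2.18 for Atp5k. They ranged from -0.72 to 0.47 for Cox6a1, -0.34 to 0.67 for Cox7a2, -0.15 to 0.45 for Sdha, -0.069 to 0.21 for Cyc1, -0.27 to 0.34 for ND1, -0.95 to 0.11 for Atpif1, -1.59 to 0.048 for Vdac1, -0.48 to 1.91 for ND5, and -0.69 to 0.41 and -0.22 to 0.15 for the other Cycs probes. The cause was not tested. Of 59 named probes, 12 changed sign without WT replicate 3, against 1 to 5 without any other array. Values at the floor say only that a probe was not above 32.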
